A study of Mus musculus with 2 samples.

Results

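The 9 genes described here encode 4 alpha-tubulins (Tuba1a, Tuba1b, Tuba1c and Tuba4a), 4 beta-tubulins (Tubb5, Tubb6, Tubb2a and Tubb4b) and the tubulin-binding protein stathmin (Stmn1). They were taken by gene symbol, 1 row each, from the 32285 features of a pair of droplet single-cell RNA libraries of mouse muscle stem cells, also called satellite cells. Both libraries came from tibialis anterior muscle of mice aged 8 weeks with the genotype Pax7 CreERT2/+ ;Rosa26 mTmG/+. In these mice an inducible Cre driven by Pax7 switches a membrane reporter from red to green so that the stem cells and their descendants can be sorted. Quiescent satellite cells were sorted from muscle without injury (QSC), and activated satellite cells were sorted 1.5 days after an injection of cardiotoxin (CTX), which destroys muscle fibres (ASC). There was 1 library per group, made from the pooled cells of several mice, so injury, animals and library cannot be told apart, differences were not checked in replicates and no test was run. The reporter marks cells that expressed Pax7 when Cre was induced, so it stays on in descendants that no longer express Pax7. The sources used here name both the tibialis anterior and the hind-limb muscles as the tissue digested for sorting.

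Microtubules are hollow polymers of alpha- and beta-tubulin heterodimers, and mammals encode each subunit in several isotype genes whose proteins differ mostly in the acidic tail at the carboxyl end. The tail carries the modifications that motors and other binding proteins read, among them the removal and return of a terminal tyrosine on alpha-tubulin. Stathmin binds free tubulin dimers and promotes depolymerization, and is switched off by phosphorylation when cells build a mitotic spindle. In muscle, microtubules are rearranged from a centrosomal array in proliferating myoblasts to a lattice along the fibre in differentiated cells.

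The last 15 sense codons and the stop codon of 5 of the tubulin coding sequences are shown because they encode the tail in which the isotypes differ. The sequences are those of GENCODE M21 on GRCm38, and the capitals mark the last sense codon.
Tuba1c: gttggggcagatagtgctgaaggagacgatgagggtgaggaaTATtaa
Tuba4a: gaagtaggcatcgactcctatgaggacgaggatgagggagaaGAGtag
Tubb5: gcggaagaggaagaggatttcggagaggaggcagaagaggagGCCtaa
Tubb2a: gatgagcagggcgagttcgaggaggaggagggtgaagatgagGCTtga
Tubb4b: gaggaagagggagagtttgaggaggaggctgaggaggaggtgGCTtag
The last codon specifies tyrosine in Tuba1c and glutamate in Tuba4a. Among the last 15 codons, 4 specify glutamate in Tuba1c and 6 in Tuba4a. The beta-tubulin ends carry 9 glutamate codons in Tubb5, 8 in Tubb2a and 10 in Tubb4b.

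On GRCm38, Tuba1b (chr15:98931425-98934565, minus strand), Tuba1a (chr15:98949837-98953703, minus) and Tuba1c (chr15:99029891-99038110, plus) are neighbours. The coding sequence of Tuba1b is 98.3% identical to that of Tuba1a and 98.4% identical to that of Tuba1c, whereas Tuba4a (chr1:75214228-75219865, minus) is 85.6% identical to Tuba1b. Tubb5 lies at chr17:35833921-35838306 (minus), Tubb2a at chr13:34074274-34078007 (minus), Tubb4b at chr2:25222160-25224702 (minus), Tubb6 on chromosome 18 and Stmn1 at chr4:134468320-134473843 (plus). The libraries were read from the 3′ end of transcripts, where shared sequence could move reads between genes. In the last 200 bases of the annotated transcripts, 0 of 151 words of 50 bases recurred in another counted gene for 8 members, and 7 of 151 did for Tuba1c. Over the last 500 bases, 54.8% of the words of Tuba1a, 51.4% of those of Tuba1b, 68.1% of those of Tuba1c and 41.0% of those of Tubb2a recurred in another counted gene. Counts of the Tuba1 trio, and of Tubb2a against Tubb2b, are therefore less certain the farther upstream the reads fell. Gene bodies of Tuba4a, Tubb4b and Tuba1b also overlap counted genes on the opposite strand (Stk16, Fam166a and Gm41396).

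Barcodes were kept if 500 or more genes were detected and mitochondrial UMIs did not pass 10%, a UMI being the tag of 1 captured transcript. This left 516 QSC barcodes with 1162091 UMIs and 1468 ASC barcodes with 8895815 UMIs, and 2 barcode sequences occurred in both sets. Levels are UMIs per 1000000 UMIs (CPM) of the summed barcodes with exact Poisson 95% intervals, ratios carry exact conditional binomial 95% intervals and shares exact Clopper-Pearson 95% intervals, all of which cover counting error only. Since each transcript gives 1 tag whatever its length, CPM of different genes were set side by side without a length correction. The limit of shared sequence given above for the Tuba1 trio and Tubb2a holds in such comparisons, isotype shares among them. The kept barcodes were divided by their content of fibre RNA, because both sorted suspensions held fibre transcripts. Contractile-low muscle barcodes held under 5% UMIs of a list of 10 genes of the muscle fibre, mostly contractile (370 QSC and 406 ASC), contractile-high barcodes held 5% or more (104 QSC and 947 ASC), and 42 QSC and 115 ASC barcodes belonged to clusters named macrophage/monocyte-like, neutrophil-like or fibroblast-like from their markers. The contractile limit is a range and not a cell type, and 3 QSC and 44 ASC barcodes lay between 3 and 5%, with 2 QSC and 67 ASC between 5 and 10%. Of the contractile-low QSC barcodes, 235 belonged to the quiescent satellite cell-like cluster, 69 to an unnamed cluster led by the cycle genes Rrm2 and Hells, whose QSC barcodes held 384 CPM of cycle genes against 4227 in its ASC barcodes, and 40 to the fibre-like cluster, whereas 231 ASC ones belonged to another unnamed cluster led by Bgn and C1qtnf3, 106 to the Rrm2 cluster and 44 to the activated satellite cell-like cluster. In the contractile-low class, Pax7, the factor that marks satellite cells, stood at 214 CPM in QSC and 29.9 in ASC. Myod1, the factor of activated myoblasts, stood there at 149 and 418 CPM. The ASC barcodes of the activated satellite cell-like cluster held 6535 CPM of Myog and 0 UMIs of Pax7. That cluster was named from a marker list that includes Myog, so the name covers Myog-high muscle cells. The fibre genes as a list took 1.84% of the UMIs of contractile-low barcodes in QSC and 2.08% in ASC, and 20.5% and 16.8% of those of contractile-high barcodes. The 10 quiescent markers summed to 6128 CPM in QSC and 1106 in ASC of the contractile-low class, and to 145 and 98.2 CPM in the contractile-high class, where Spry1, Calcr, Cd34 and Heyl were at 0 in QSC. The 10 markers of activated cells, which include the muscle genes Des and Tnnt2, summed to 1599 CPM in QSC and 4423 in ASC of the contractile-low class and to 2611 and 5004 CPM in the contractile-high class, where Myog, Mymk, Mymx, Ccnd1 and Megf10 were at 0 in QSC. The median mitochondrial share was 4.44% in QSC and 0.297% in ASC, and the 5 red blood cell markers summed to 122 and 1030 CPM over all kept barcodes. In the contractile-low class, the red blood cell markers summed to 131 CPM in QSC and 1704 in ASC. The 5 markers of smooth muscle cells or pericytes summed to 438 and 1232 CPM, and the macrophage/monocyte markers to 65.0 and 116. Other sets went the other way there: the fibroblast markers summed to 937 CPM in QSC and 444 in ASC, and the endothelial ones to 54.3 and 14.0. The part of these in the results was not tested. Fewer expressing cells and less RNA per cell cannot be told apart in the summed levels.

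Across all kept barcodes, 7 of the 9 genes were at least 2-fold higher in ASC than in QSC, beside 15.2% of the 5910 genes at 20 CPM or more in either library. None was at least 2-fold lower, a change seen for 23.2% of those genes. The median log2 ratio of the members was 1.74, against -0.03 for all genes compared. The alpha-tubulin Tuba1b stood at 262 CPM in QSC (interval 234 to 294) and 1026 in ASC (1005 to 1047), a log2 ratio of 1.97 (1.80 to 2.14). Tuba1c, the least abundant of the alpha members, stood at 31.8 CPM in QSC (22.4 to 43.9) and 131 in ASC (124 to 139). Tuba4a stood at 302 CPM in QSC and 917 in ASC, a log2 ratio of 1.60 (1.45 to 1.76). Tuba1a alone among the alpha members was lower in ASC, with 587 CPM in QSC (544 to 633) and 371 in ASC (358 to 384). The intervals of these alpha-tubulin levels cover counting error only, so their distance between the libraries is no measure of replicates.

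Among the beta-tubulins, Tubb5, an isotype of most cell types, stood at 235 CPM in QSC (208 to 265) and 806 in ASC (787 to 824), a log2 ratio of 1.78 (1.60 to 1.96). Tubb6 stood at 142 CPM in QSC and 473 in ASC, a log2 ratio of 1.74 (1.51 to 1.97). Tubb4b, an isotype found in cilia and in many cell types, stood at 213 CPM in QSC and 504 in ASC, a log2 ratio of 1.24 (1.06 to 1.44). As with Tuba1a among the alpha genes, 1 beta gene went the other way: Tubb2a stood at 166 CPM in QSC (143 to 191) and 87.7 in ASC (81.6 to 94.1). Stmn1 had 11 UMIs in QSC (9.47 CPM, 4.73 to 16.9) and 1874 in ASC (211 CPM, 201 to 220), 22.3-fold or a log2 ratio of 4.48. That ratio was the highest of the 9, but it was 3.26 as a mean of per-barcode CPM and 2.12 with at most 1% mitochondrial UMIs, where Tubb6 had 3.97. The directions of Tuba1a and Tubb2a did not hold under each filter: with at most 1% mitochondrial UMIs, which left 1 contractile-low QSC barcode, their log2 ratios were 0.73 and 0.85.

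**Figure D1:**
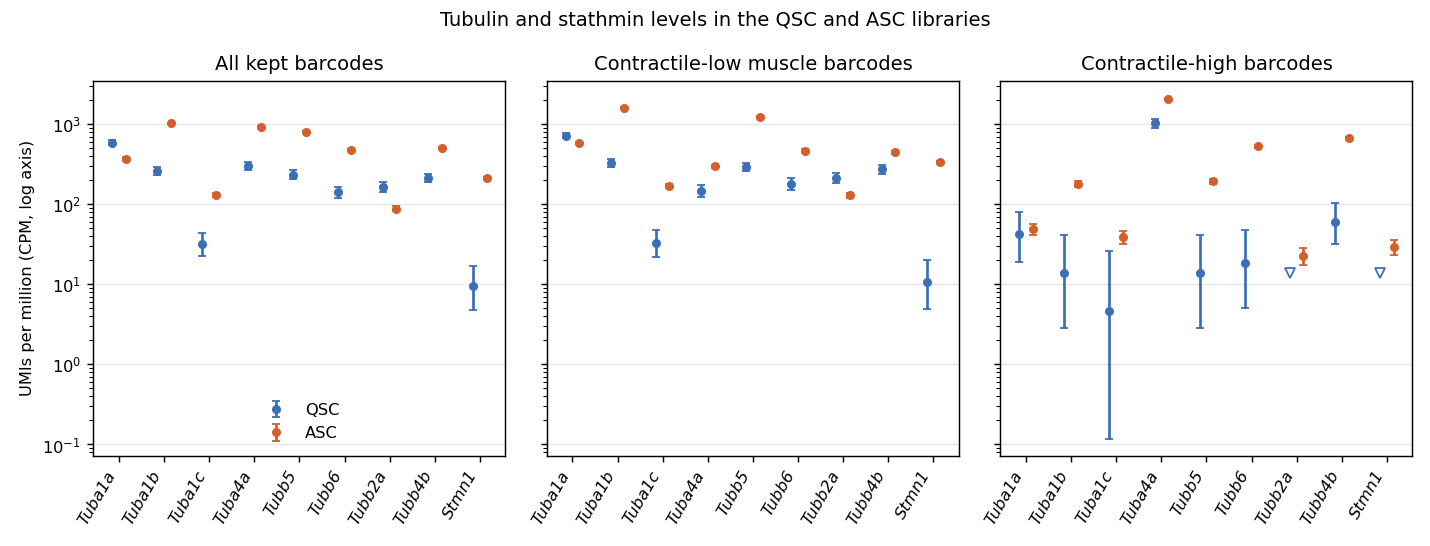
Level of each gene in CPM (log axis) in the QSC library (blue) and the ASC library (orange), for all kept barcodes, contractile-low muscle barcodes and contractile-high barcodes. Points are summed levels of 1 library and bars are exact Poisson 95% intervals of counting error. Open triangles stand at the level of 3 counts (14.0 CPM) for Tubb2a and Stmn1, which had 0 UMIs in QSC contractile-high barcodes, and Tuba4a stands apart there at 1021 and 2066 CPM.

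In contractile-low muscle barcodes, 6 of the 9 genes were at least 2-fold higher in ASC, beside 18.6% of the 6032 genes compared, and none was at least 2-fold lower, beside 24.5%. The median log2 ratio of the members was 1.38, and that of all genes compared was -0.07. Tuba1b stood at 327 CPM in QSC (290 to 368) and 1587 in ASC (1553 to 1621), 4.85-fold, and Tuba1c at 33.1 and 168 CPM, 5.09-fold. Tubb5 stood at 292 CPM in QSC (256 to 331) and 1220 in ASC (1191 to 1251), 4.18-fold. Stmn1 stood at 10.6 CPM in QSC (9 UMIs, 4.86 to 20.2) and 335 in ASC (319 to 351), 31.5-fold. Tubb6 stood at 180 and 466 CPM, a log2 ratio of 1.38 (1.14 to 1.62). These genes therefore differed in the contractile-low barcodes by as much as in the whole libraries or by more, apart from Tubb6, whose ratio was smaller.

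The ratios of the remaining members were nearer to 0 in this class. Tubb4b stood at 272 CPM in QSC and 445 in ASC, a log2 ratio of 0.71 (0.52 to 0.91), under the 2-fold limit. Tuba1a stood at 718 CPM in QSC (662 to 778) and 586 in ASC (565 to 607), a log2 ratio of -0.29 (-0.42 to -0.17), which was -0.03 relative to the median gene. Tubb2a stood at 213 CPM in QSC (183 to 246) and 129 in ASC (120 to 139), a log2 ratio of -0.72 (-0.96 to -0.48). Tuba1a was thus the most abundant of the 9 genes in QSC of this class and came after Tuba1b and Tubb5 in ASC.

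Tuba4a stood at 148 CPM in QSC (123 to 176) and 298 in ASC (284 to 313) of the contractile-low class, 2.02-fold. That value sat at the 2-fold limit, and the log2 ratio was 0.91 with a contractile share under 3%, 0.97 with at most 5% mitochondrial UMIs and 0.94 without the 5% deepest barcodes. Its level was next set against fibre RNA. Per 1000 UMIs of the 10 contractile genes, ASC held 14.4 UMIs of Tuba4a in contractile-low barcodes (13.7 to 15.1), 12.3 in contractile-high barcodes (12.0 to 12.6) and 14.7 in non-muscle barcodes (13.0 to 16.6). The intervals of the contractile-low and contractile-high values lie apart, but the classes were cut on the share of these same 10 genes. The cut alone can shift this ratio between the classes, so no conclusion is drawn from the gap. In QSC it was 8.04 (6.69 to 9.57) in contractile-low, 4.97 (4.34 to 5.68) in contractile-high and 3.20 (1.29 to 6.60) in non-muscle barcodes. For comparison, Tubb4b gave 21.4 UMIs per 1000 contractile UMIs in ASC contractile-low barcodes and 3.99 in contractile-high ones. The part of free fibre RNA in the Tuba4a level of contractile-low barcodes was not tested.

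The share of barcodes with a UMI was compared after each barcode was reduced to 1200 UMIs, which 366 QSC and 401 ASC contractile-low barcodes reached. Tuba1b was found in 30.1% of the QSC barcodes (25.4 to 35.0) and 60.6% of the ASC barcodes (55.6 to 65.4), and Tubb5 in 27.3% and 54.9%. Stmn1 was found in 1.1% of QSC barcodes (0.30 to 2.8) and 18.5% of ASC barcodes (14.8 to 22.6), and in 6.4% of the 110 ASC non-muscle barcodes. Tuba1a was found in 45.6% of QSC and 44.6% of ASC barcodes, intervals that overlap. Without this reduction, at median depths of 2221.5 and 8483 UMIs, the Stmn1 shares were 1.9% and 51.2% and the Tuba1a shares 63.0% and 86.9%.

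**Figure D2:**
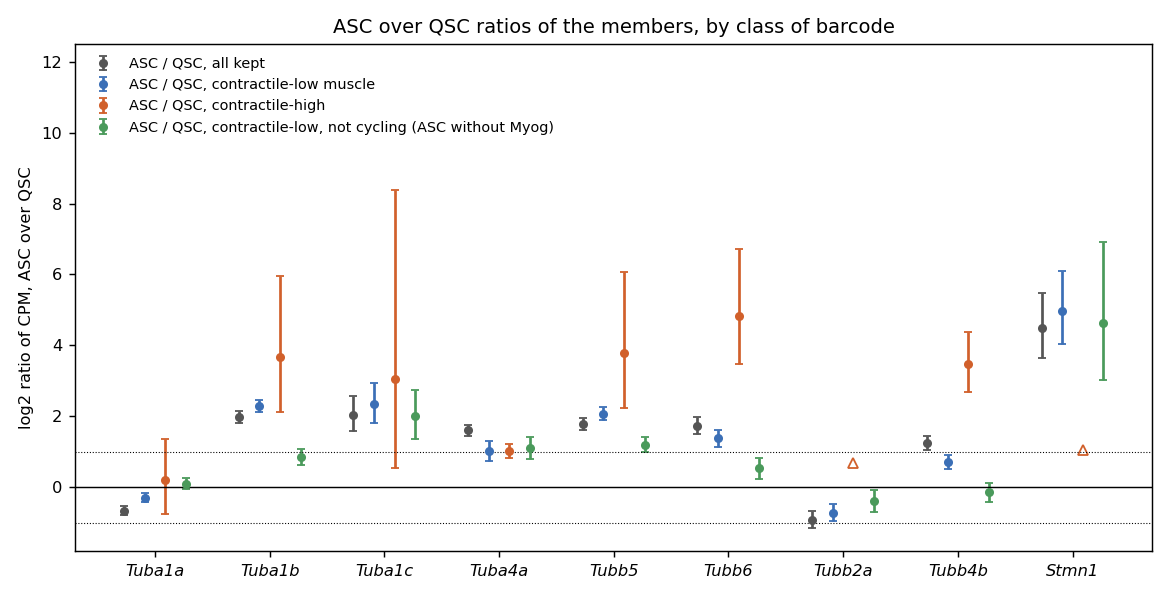
Log2 ratio of ASC over QSC for each gene in all kept barcodes (grey), contractile-low muscle barcodes (blue) and contractile-high barcodes (orange). Green points are contractile-low barcodes not called cycling, with ASC barcodes without Myog. Bars are exact conditional binomial 95% intervals, dotted lines mark a 2-fold difference, and open triangles are lower bounds where QSC had 0 UMIs. Stmn1 is at 4.62 among the green points, while Tuba1a and Tubb4b lie near 0.

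The ASC contractile-low barcodes were next divided by 45 S-phase and G2/M genes. A barcode with at least 2 UMIs of these genes among 1200 was called cycling, which applied to 164 of 401 ASC and 29 of 366 QSC contractile-low barcodes. Of the ASC barcodes, 92 held 1 such UMI and 26 held 2, so many lay near the limit. In ASC, 4 of the 9 members were at least 2-fold higher in cycling than in other barcodes, beside 11.4% of the 5311 genes compared. Stmn1 stood at 87.9 CPM in barcodes not called cycling and 474 in cycling ones, a log2 ratio of 2.43 (2.20 to 2.67). Tuba1b stood at 661 and 2109 CPM, a log2 ratio of 1.67 (1.59 to 1.76), and Tubb5 at 525 and 1611 CPM, a log2 ratio of 1.62 (1.52 to 1.72). Tuba1c stood at 84.2 and 215 CPM, 2.56-fold. Tubb4b and Tubb6 were 1.72-fold and 1.64-fold higher, under the limit, and Tuba4a was level at 290 and 303 CPM. Tuba1a (697 and 522 CPM) and Tubb2a (152 and 116 CPM) were lower in cycling barcodes. Cycling barcodes were deeper, with a median of 20419 UMIs against 5646, and cycle genes and members were read from the same barcodes.

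Levels followed the number of cycle UMIs step by step for some members and not for others. Over barcodes with 0, 1, 2 to 3, 4 to 7 and 8 or more cycle UMIs (145, 92, 49, 82 and 33 barcodes), Stmn1 stood at 77.7, 105, 311, 447 and 707 CPM. Tubb5 stood at 439, 668, 1077, 1537 and 2339 CPM over the same bins. Tuba1b stood at 724 and 555 CPM in the lowest 2 bins and at 1524, 2114 and 2674 in the others. Tuba1b, Tubb5 and Stmn1 were thus highest in the barcodes with most cycle UMIs. Tuba4a stayed between 270 and 327 CPM, with no such order. Tuba1a was highest, at 789 CPM, in barcodes with 1 cycle UMI and lowest, at 464, in those with 4 to 7.

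**Figure D3:**
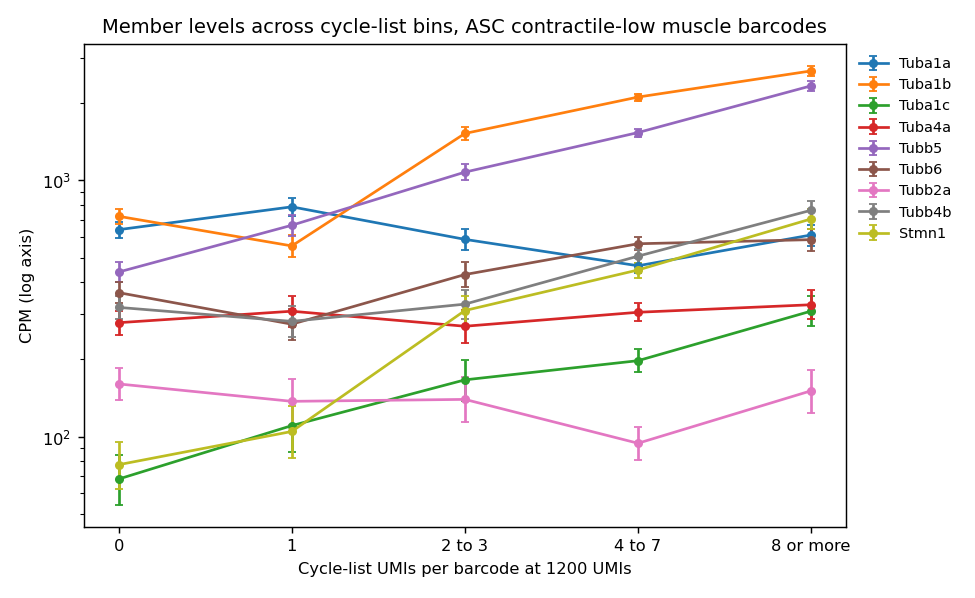
Level of each gene in CPM (log axis) in ASC contractile-low muscle barcodes grouped by their cycle-gene UMIs at a depth of 1200 UMIs, with exact Poisson 95% intervals. Stmn1 goes from 77.7 to 707 CPM and Tubb5 from 439 to 2339 CPM between the lowest and the highest bin, whereas Tuba4a stays between 270 and 327 CPM.

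The library difference was next examined in barcodes not called cycling. ASC was further limited to the 168 barcodes without a UMI among 1200 of Myog, the factor of terminal commitment. These ASC barcodes still held 797 CPM of cycle genes, against 293 in the QSC ones, so the cut left cycle genes higher in ASC. Against 337 QSC barcodes, 4 members (Stmn1, Tuba1c, Tubb5 and Tuba4a) were at least 2-fold higher, beside 9.55% of the 5727 genes compared. None was at least 2-fold lower, beside 19.2%. With all ASC barcodes not called cycling, Tubb5 fell under the limit (0.86 on the log2 scale) and Tuba1b passed it (1.06). Stmn1 stood at 3.84 CPM in QSC (3 UMIs) and 94.5 in ASC (106 UMIs), a log2 ratio of 4.62 (3.03 to 6.92). Tubb5 stood at 290 and 663 CPM, a log2 ratio of 1.19 (0.98 to 1.42), and Tuba1c at 28.2 and 113 CPM, a log2 ratio of 2.01 (1.35 to 2.73). Tuba1b stood at 316 and 568 CPM, 1.80-fold, less than the 4.85-fold of the whole class. Tuba1a (718 and 766 CPM) and Tubb4b (268 and 242 CPM) had intervals of the ratio that include 0. Tubb2b, the close relative of Tubb2a, stood at 108 and 238 CPM, 2.21-fold higher, while Tubb2a stood at 210 and 160 CPM.

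Among ASC barcodes not called cycling, those with Myog among 1200 UMIs (69) and without it (168) also differed. Tubb6 stood at 247 CPM without and 455 with Myog, a log2 ratio of 0.88 (0.65 to 1.11), and Tubb4b at 242 and 399 CPM, a log2 ratio of 0.72 (0.48 to 0.97). Tubb5 went the other way, with 663 CPM without and 321 with Myog, or -1.04 on the log2 scale (-1.26 to -0.83), as did Tuba1c, at 113 and 41.0 CPM. Stmn1 stood at 94.5 and 78.0 CPM, and the interval of its ratio includes 0 (-0.76 to 0.20). Barcodes with Myog were deeper (median 10063 against 5078 UMIs) and held less cycle-gene RNA (532 against 797 CPM). The part of depth and of cycle genes in these differences was not tested.

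Isotype makeup was expressed as the share of each gene among all UMIs of the 8 alpha-tubulin or 8 beta-tubulin genes in the feature list. In contractile-low QSC barcodes, Tuba1a gave 57.5% of alpha-tubulin UMIs (54.4 to 60.5) and Tuba1b 26.2% (23.6 to 28.9). In ASC barcodes not called cycling, Tuba1a gave 39.8% and Tuba1b 37.7%. In cycling ASC barcodes, Tuba1a gave 16.5% (15.8 to 17.2) and Tuba1b 66.5% (65.6 to 67.4). In the 29 QSC barcodes called cycling, Tuba1a gave 48.5% (38.2 to 58.8) and Tuba1b 29.9% (21.0 to 40.0), with intervals that overlap. Of these QSC barcodes, 25 held just 2 cycle UMIs, and cycle genes summed to 1651 CPM there against 4671 in cycling ASC barcodes. Whether these QSC barcodes were from cycling cells was not tested, so their shares are not set against those of cycling ASC barcodes.

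In contractile-low QSC barcodes, Tubb5 gave 27.2%, Tubb4b 25.4%, Tubb2a 19.8%, Tubb6 16.8% and Tubb2b 10.5% of beta-tubulin UMIs. In cycling ASC barcodes, Tubb5 gave 55.1% (54.1 to 56.1) and Tubb2a 4.0% (3.6 to 4.4). In ASC barcodes not called cycling that had Myog, Tubb6 gave 30.8%, Tubb4b 27.0% and Tubb5 21.7%, so Tubb5 did not lead in every ASC group. All alpha genes together made up 53.8% of tubulin UMIs in contractile-low QSC barcodes (51.6 to 56.1) and 52.4% in ASC ones (51.8 to 53.0). The balance between the subunits thus differed by less than its counting interval, while the summed tubulin level was 2321 CPM in QSC and 5082 CPM in ASC.

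**Figure D4:**
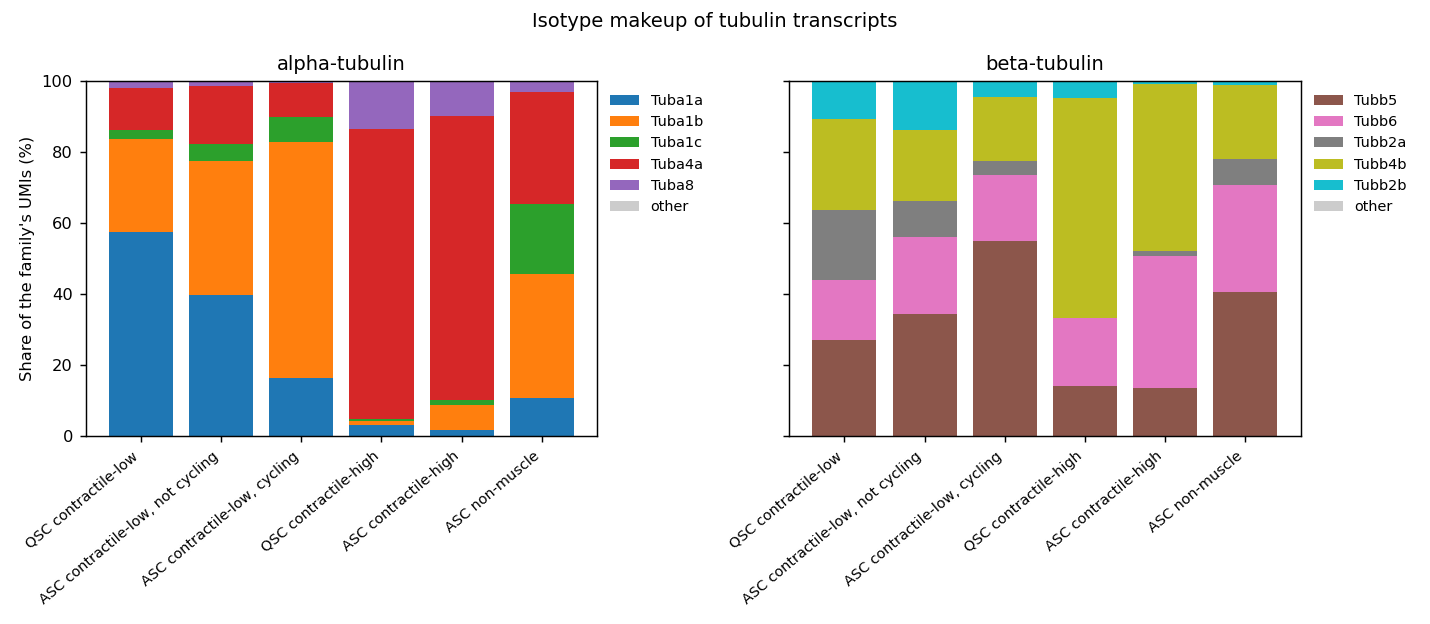
Share of each isotype gene (percent of the family's UMIs) among alpha-tubulins (left) and beta-tubulins (right) in 6 groups of barcodes. Tuba1a leads the alpha pool in QSC contractile-low barcodes (57.5%), Tuba1b in cycling ASC barcodes (66.5%) and Tuba4a in contractile-high barcodes of both libraries (81.7 and 79.9%).

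Contractile-high barcodes held another tubulin set. Tuba4a gave 81.7% of alpha-tubulin UMIs in QSC (76.6 to 86.2) and 79.9% in ASC (79.0 to 80.7), and Tuba8, an alpha isotype of heart and skeletal muscle, gave 13.4% and 9.8%. Tuba4a, whose last codon is for glutamate, stood at 1021 CPM in QSC (890 to 1166) and 2066 in ASC (2015 to 2117), 6.92-fold and 6.93-fold above the contractile-low barcodes of the same library. The beta pool of the ASC contractile-high barcodes was mostly Tubb4b, 47.0% (45.5 to 48.5), and Tubb6, 37.2% (35.7 to 38.6). In the QSC class only 21 beta-tubulin UMIs were counted, 13 of them from Tubb4b. The alpha genes gave 92.7% of all tubulin UMIs there (89.1 to 95.4), and 64.5% in ASC (63.7 to 65.4).

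Between the libraries, 7 of the 9 members were at least 2-fold higher in ASC contractile-high barcodes, beside 19.4% of the 4179 genes compared. None was at least 2-fold lower, beside 12.2%. The calls of Tuba1b, Tuba1c, Tubb5, Tubb6 and Stmn1 rest on 0 to 4 UMIs in QSC, and that of Stmn1 on 3 counts set in place of 0. How many of the 4179 genes were called on so few QSC UMIs was not tested. The 7 of 9 are therefore not weighed against the 19.4%. Tubb6 stood at 18.7 CPM in QSC (4 UMIs, 5.08 to 47.7) and 529 in ASC (504 to 555), a log2 ratio of 4.83 (3.47 to 6.70). Tubb4b stood at 60.6 CPM in QSC (13 UMIs) and 669 in ASC, a log2 ratio of 3.46 (2.69 to 4.38). Tuba4a was 2.02-fold higher. The Tubb6 and Tubb4b levels of ASC contractile-high barcodes were above those of ASC contractile-low barcodes, 466 and 445 CPM, which was not so in QSC. The QSC counts of the others were few: 3 UMIs each for Tuba1b and Tubb5, 1 for Tuba1c and 0 for Tubb2a and Stmn1, with 214486 UMIs in all. Tuba1b had a log2 ratio of 3.68 (2.13 to 5.97) and Tubb5 one of 3.78 (2.23 to 6.06). Stmn1, at 29.0 CPM in ASC, was at least 2.08-fold higher and Tubb2a, at 22.5 CPM, at least 1.61-fold higher, taking 3 counts for the QSC class. Within ASC, contractile-high barcodes held 12.1-fold less Tuba1a, 8.83-fold less Tuba1b, 6.34-fold less Tubb5 and 11.5-fold less Stmn1 than contractile-low ones. Myog and Myod1 also stood at 149 and 170 CPM in ASC contractile-high barcodes. The part of free RNA or of droplets with more than 1 source was not tested. The QSC contractile-high class came mainly from 1 cluster (94 of 104 barcodes) led by Pdk4 and Neb, whereas the ASC class spread over several.

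Over 14 groups of library and cluster with at least 20 barcodes, the spread of each member was wide. Tuba1b ranged from 15.2 CPM in the QSC fibre-rich cluster to 1925 in the ASC cluster led by cycle genes, and Stmn1 from 0 to 378 CPM in the same groups. Tuba4a ranged from 91.6 CPM in QSC macrophage/monocyte-like barcodes to 2373 in the ASC fibre-like cluster. Tubb6 was highest, at 937 CPM, in an unnamed ASC fibre-rich cluster led by the stretch-response genes Ankrd1 and Csrp3. Tuba1c was highest, at 609 CPM, in the 24 ASC neutrophil-like barcodes, which gave 28 UMIs of it. The 42 QSC barcodes of the fibre-like cluster held 653 CPM of Tuba1a and 135 of Tuba4a, and 40 of them were contractile-low, so the cluster's name does not describe its QSC part.

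**Figure D5:**
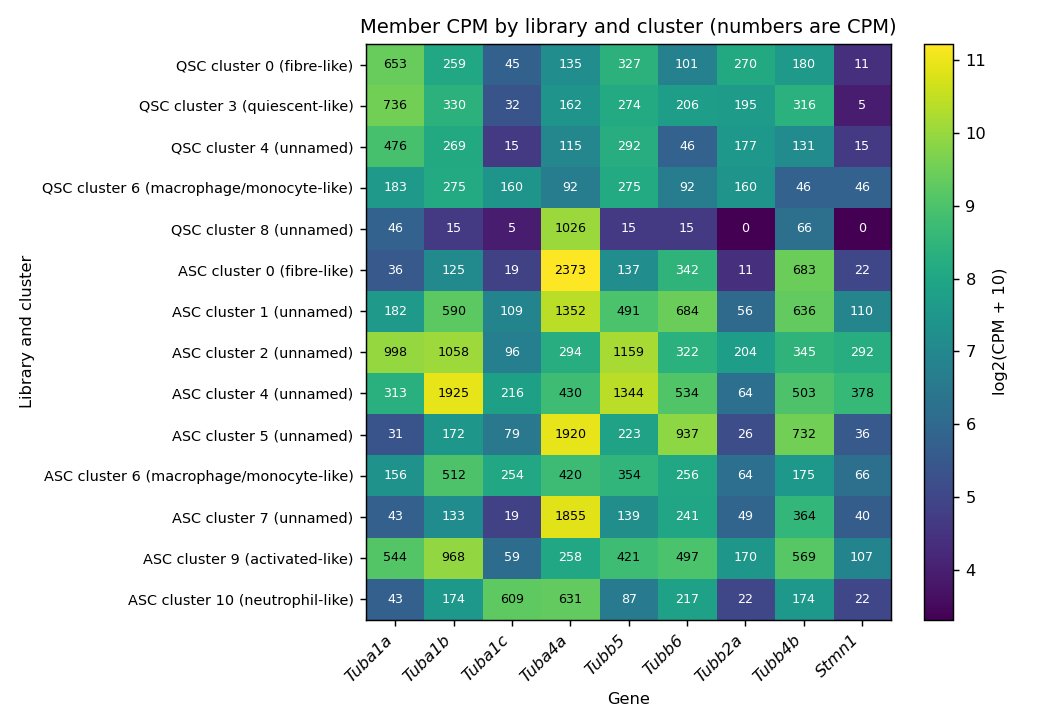
Level of each gene in 14 groups of library and cluster, with colour on a log2(CPM + 10) scale and the CPM printed in each cell. Tuba4a is highest in fibre-rich clusters (2373 CPM in ASC cluster 0) and Tuba1b and Tubb5 in ASC cluster 4 (1925 and 1344 CPM), which is led by cycle genes.

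The gene whose pattern was most like each member over these 14 groups was found by Pearson's r of log2(CPM + 10) among 5812 other genes, as a description only, since groups share libraries and depth. The pattern of Tubb5 was most like that of Tuba1b (r = 0.9560), nearly level with Ppia (0.9555) and Rack1 (0.9501). The reverse did not hold, since Tuba1b was closer to Ppia, Rps10 (0.961) and Rack1 (0.959) than to Tubb5. No pairing of the alpha and beta gene is read from this. Tuba1b was most like Ppia (0.97), Stmn1 most like Selenoh (0.94), Tuba1c most like the actin-binding gene Pfn1 (0.95) and Tuba1a most like Ptms (0.97). Tuba4a was most like Mrpl51 (0.98) and next like the muscle genes Smpx and Ppp1r27 (both 0.97). Tubb6 was most like Polr2f (0.93), Tubb4b most like Adrm1 (0.91) and Tubb2a most like Snrnp70 (0.96). Among the members themselves, Tubb6 and Tubb4b had r = 0.87, Tuba1a and Tubb2a r = 0.88, and Tuba4a and Tubb2a r = -0.80.

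Promoters of 4 members are shown, the first 2 for the pair of members with the highest r. Tubb4b is shown for its own pattern in both stem cell and fibre barcodes, and Tuba4a for the fibre isotype. They are RefSeq windows of 300 bases around the gene start on GRCm38.p6, written 5′ to 3′ along the gene. Capitals mark CCAAT and GGGCGG on either strand.
Tuba1b, chr15:98934341-98934640, minus strand: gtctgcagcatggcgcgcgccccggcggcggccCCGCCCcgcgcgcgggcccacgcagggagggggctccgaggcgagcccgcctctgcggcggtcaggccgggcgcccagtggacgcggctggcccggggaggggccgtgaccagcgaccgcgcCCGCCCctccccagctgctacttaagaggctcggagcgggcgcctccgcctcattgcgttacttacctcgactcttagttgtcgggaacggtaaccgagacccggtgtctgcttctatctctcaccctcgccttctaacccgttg
Tubb5, chr17:35838252-35838551, minus strand: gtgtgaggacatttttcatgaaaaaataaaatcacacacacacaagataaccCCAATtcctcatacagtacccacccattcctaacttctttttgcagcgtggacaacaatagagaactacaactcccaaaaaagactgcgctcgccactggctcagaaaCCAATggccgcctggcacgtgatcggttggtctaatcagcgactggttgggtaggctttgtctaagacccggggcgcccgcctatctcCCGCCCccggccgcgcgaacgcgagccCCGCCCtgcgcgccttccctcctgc
Tubb4b, chr2:25224653-25224952, minus strand: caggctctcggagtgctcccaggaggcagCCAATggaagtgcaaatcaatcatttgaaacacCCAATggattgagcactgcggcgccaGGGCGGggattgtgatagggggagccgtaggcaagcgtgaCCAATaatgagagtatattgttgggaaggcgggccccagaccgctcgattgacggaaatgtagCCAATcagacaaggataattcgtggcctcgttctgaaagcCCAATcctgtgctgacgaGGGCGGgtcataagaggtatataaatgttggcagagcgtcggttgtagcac
Tuba4a, chr1:75219245-75219544, minus strand: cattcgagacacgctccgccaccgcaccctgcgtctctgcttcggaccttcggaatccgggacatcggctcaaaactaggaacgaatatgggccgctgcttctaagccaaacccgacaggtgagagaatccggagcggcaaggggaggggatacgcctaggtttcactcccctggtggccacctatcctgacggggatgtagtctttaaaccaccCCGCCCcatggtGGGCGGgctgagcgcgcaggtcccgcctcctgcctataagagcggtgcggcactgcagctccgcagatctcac
Windows were found for 7 of the 9 members. CCAAT, the letters of the CCAAT box, occurred in 4 of the 7 (Tuba1a, Tuba1c, Tubb5 and Tubb4b) and in 37.4% of 32851 promoter windows. The Tubb4b window held 5 copies, all on the gene's strand. GGGCGG, the letters of the GC box, occurred in 6 of the 7 and in 35.7% of windows, and CANNTG, the E-box letters that myogenic factors can bind, in all 7 and in 72.3% of windows. TTTGAA, the letters of the cell cycle element called CHR, occurred only in Tubb4b, against 17.9% of windows, and its variant TTCGAA in 0 of 7, against 1.56%. TATAAA occurred in Tubb2a and Tubb4b, against 13.6%. CANNTG can overlap the other motifs, all were searched on both strands, and a match describes the window only.

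Genes that act with tubulin were counted from whole lists in contractile-low barcodes. Of 19 tested genes for tubulin folding, which covers the chaperonin and prefoldin that fold tubulin and the cofactors that join the dimer, 9 were at least 2-fold higher in ASC and 1 lower, beside 18.6% higher and 24.5% lower of all genes compared, with a median log2 ratio of 0.90 against -0.07. The chaperonin subunits Cct2 (83.9 and 400 CPM, a log2 ratio of 2.25, interval 1.91 to 2.61) and Tcp1 (120 and 401 CPM) had the highest ratios. Tbcel, at 20.1 and 8.24 CPM, and the prefoldin subunit Pfdn5, at 604 and 437 CPM, had the lowest.

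Of 20 tested genes for microtubule assembly and binding, 3 were at least 2-fold higher and 6 lower, shares near those of all genes (18.6% and 24.5%), with a median of -0.39. The highest ratios were those of the spindle assembly genes Tpx2 and Tacc3. Tpx2 had 2 UMIs in QSC and 262 in ASC (log2 ratio 4.41, 2.54 to 7.46). Tacc3 had 8 and 235 UMIs (log2 ratio 2.25, 1.25 to 3.48). Map1b, which stabilizes microtubules, stood at 878 CPM in QSC and 176 in ASC, a log2 ratio of -2.32 (-2.46 to -2.18), the lowest of the list. Clip1, a protein of growing microtubule ends, stood at 47.2 and 19.2 CPM.

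The other lists had 6 or fewer genes at 20 CPM, too few to set against the 18.6% and 24.5% of all genes. Of the 12 other tubulin genes, 3 reached 20 CPM. Among these, Tubg1, the gamma-tubulin of the centrosome, stood at 23.6 CPM in QSC and 49.1 in ASC, and Tubb2b and Tuba8 were within 2-fold. Of 6 tested genes for tubulin modification, none passed the limit in either direction, the extremes being Ttll12 (log2 ratio 0.93, 0.04 to 1.97) and Tpgs1 (-0.02, -0.62 to 0.64). Svbp, the partner of the enzymes that remove the terminal tyrosine, stood at 52.0 and 92.2 CPM. Of 4 tested genes for the decay of tubulin mRNA when free tubulin is abundant, Cnot11 was higher. It stood at 8.27 CPM in QSC (7 UMIs) and 21.7 in ASC (113 UMIs), a log2 ratio of 1.39 (0.30 to 2.74). Ttc5, which recognizes the nascent tubulin chain, stood at 29.5 CPM in QSC and 17.1 in ASC. Of 3 tested genes of the gamma-tubulin ring complex, Pcnt, a scaffold of the centrosome, was lower (26.0 and 11.5 CPM). No other gene of the stathmin family reached 20 CPM.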

How the data were processed

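The authors sorted muscle stem cells from 1 QSC and 1 ASC preparation and made 10x Genomics 3′ (v2) libraries. They deposited, per library, a matrix of UMI counts per gene and barcode, which are raw counts with no normalization. The submitters' processing notes name Cell Ranger 7.1.0, Seurat 4.1.0 and R 4.1.2 with mm10, while the matrix headers name Cell Ranger 6.0.2, and the gene annotation and strand setting are not given in the sources used here. Of 766 QSC and 1650 ASC deposited barcodes, 516 and 1468 had at least 500 genes and at most 10% mitochondrial UMIs, a wider limit than the 1% of the study. No doublets were removed and no caller was run.

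Counts were summed over barcodes with Python 3.11.15, NumPy 2.4.6 and SciPy 1.17.1. With 1 library per group no test was made. A gene was compared at 20 CPM or more in the higher group and called at a 2-fold difference. A count of 0 was set to 3 counts per summed group for a bound. Clusters came from Seurat 5.3.0 in R 4.3.3 on 1076 variable genes, after the members and all microtubule genes were left out, and gave 12 clusters, or 10 at a resolution of 0.3. Names came from marker lists, with at least 3 markers detected, and 6 clusters were named. Barcodes were thinned to 1200 UMIs for shares and cycle calls. TMM scaling used edgeR 4.0.16, only as an alternative. The interval code was tested on simulated data. Sequences came from GENCODE M21 and RefSeq with Biopython 1.88. Coding ends of Tuba1a and Tuba1b are not reported here.

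The members and lists were chosen with earlier results of these data known. All 9 members were named. Genes of the lists for other tubulins, folding, mRNA decay, modification, assembly and binding, the stathmin family and the gamma-tubulin ring complex were named at 20 CPM or more where they were other alpha- or beta-tubulins or had one of the 2 highest or 2 lowest ratios of their list. Alternatives changed the barcode filters, the scaling, the weight of deep barcodes and the limits of the classes.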

Additional observations from a re-analysis of the deposited data

Results flagged for a closer look

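Tubb2a went opposite ways in the classes of barcodes. In contractile-low muscle barcodes its log2 ratio of ASC over QSC was -0.72, with 180 UMIs in QSC and 673 in ASC. In contractile-high barcodes it had 0 UMIs in QSC and 69 in ASC, at least 1.61-fold higher. The difference between the classes was not tested, since each class has 1 library per group.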

How the results depend on the processing

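No paired analysis was possible because each group had 1 library and no test was run. Counts of members at least 2-fold higher in ASC stayed within 1.5 times the main count in each alternative, with 5 to 7 in all kept barcodes and 4 to 7 in contractile-low ones. No called value changed sign. Over all kept barcodes, the median log2 ratio of the members (1.74) was 2.40 at a mitochondrial limit of 1%, 2.05 with TMM, 1.97 relative to the median gene, 1.31 as a mean of per-barcode CPM and 1.24 without the 5% deepest barcodes. With the per-barcode mean, Tuba1b and Tubb5 had log2 ratios of 0.83 and 0.86, and Tuba4a had 0.89 at the 1% limit, all under the 2-fold limit. In contractile-low barcodes, the median (1.38) was 1.03 at a mitochondrial limit of 5%, 1.68 with TMM, 1.64 relative to the median gene and, in a comparison added after seeing the data, 0.95 without cycling barcodes. TMM moved all log2 ratios by 0.31 over all kept barcodes and by 0.30 in contractile-low ones, which put Tuba1a at 0.01. Without the 5% deepest barcodes, the ASC contractile-low shares were 25.3% for Tuba1a, 56.7% for Tuba1b, 5.76% for Tuba1c, 49.5% for Tubb5 and 6.15% for Tubb2a. The cause of these shifts was not tested. The 1% limit left 1 contractile-low QSC barcode and gave no value for that class. Depth limits the QSC contractile-high class, where 3 counts are 14.0 CPM, and the QSC non-muscle class, where they are 29.7 CPM.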

Other observations

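Outside muscle barcodes, the makeup of tubulin transcripts differed again. In the 115 ASC non-muscle barcodes, Tuba1c stood at 279 CPM, against 168 in contractile-low muscle barcodes, a log2 ratio of 0.73 (0.48 to 0.97). Tuba1a (153 CPM) and Tubb5 (343 CPM) were 3.82-fold and 3.56-fold lower there than in contractile-low barcodes. Tubb2b, with 6 UMIs, stood at 9.79 CPM against 157. Stmn1 stood at 63.6 CPM, 5.26-fold lower.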
